A study of Danio rerio with 2 samples.

Results

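Germ cell genes were measured in RNA that came down with the RNA-binding protein Cpeb1b from whole zebrafish embryos at 16 h post-fertilization (hpf), in the middle of somite formation. The set holds 10 genes of germ plasm, primordial germ cells or the oocyte, taken by gene name from a table of 33737 genes. They are ddx4, tdrd7a, piwil1, nanos3, dazl, dnd1, zar1, zar1l, mos and ca15b, and each matched 1 row. The study has 1 group of 2 replicate samples, wild-type embryos that had received mRNA for Flag-tagged Cpeb1b, precipitated with anti-FLAG beads. Both replicates stand in the deposited table as a single mean RPKM for each gene, a read count scaled to gene length and to library size, so no spread between replicates can be given. The labels state neither the stage of injection nor the dose, and the tagged protein came from injected mRNA and not from the embryo's own gene. A control precipitate, an input and uninjected embryos were not analysed here, so each value is a level in the precipitate and not an enrichment.

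In zebrafish the germ line is set aside by germ plasm, a maternally supplied aggregate of RNA and protein that a few cells inherit. These primordial germ cells keep germ plasm mRNAs, which are cleared from the rest of the embryo, and migrate along the forming trunk toward the future gonad. Several germ plasm proteins act on mRNA stability and translation. Cpeb proteins, which bind cytoplasmic polyadenylation elements in mRNA, are best known for the control of stored mRNAs in the frog oocyte. In a precipitate from whole embryos, fewer cells of a type and less RNA per cell cannot be told apart. Without an input or a control precipitate, neither can be separated from weaker binding to the tagged protein or less carry-over of unbound RNA.

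All 10 germ cell genes had a value above 0, as had 76.5% of all genes, and their levels were spread over a wide range around the middle of the table. An RPKM of 1 or more was reached by zar1, mos, ddx4 and dnd1, that is 4 of 10 genes, against 38.6% of all genes and 46.8% of those with a gene name. The median of the 10 was 0.504 RPKM and that of all genes 0.507 RPKM, with 5 germ cell genes above and 5 below the latter. The median of the 21939 named genes was higher, at 0.854 RPKM, and only zar1, mos, ddx4 and dnd1 of the 10 exceeded it. At RPKM 0.1 or more stood 9 of the 10 genes and 70.7% of all genes. None of the 10 reached RPKM 5, a level that 13.3% of all genes had. The share of germ cell genes at RPKM 1 was thus close to the background.

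**Figure D1:**
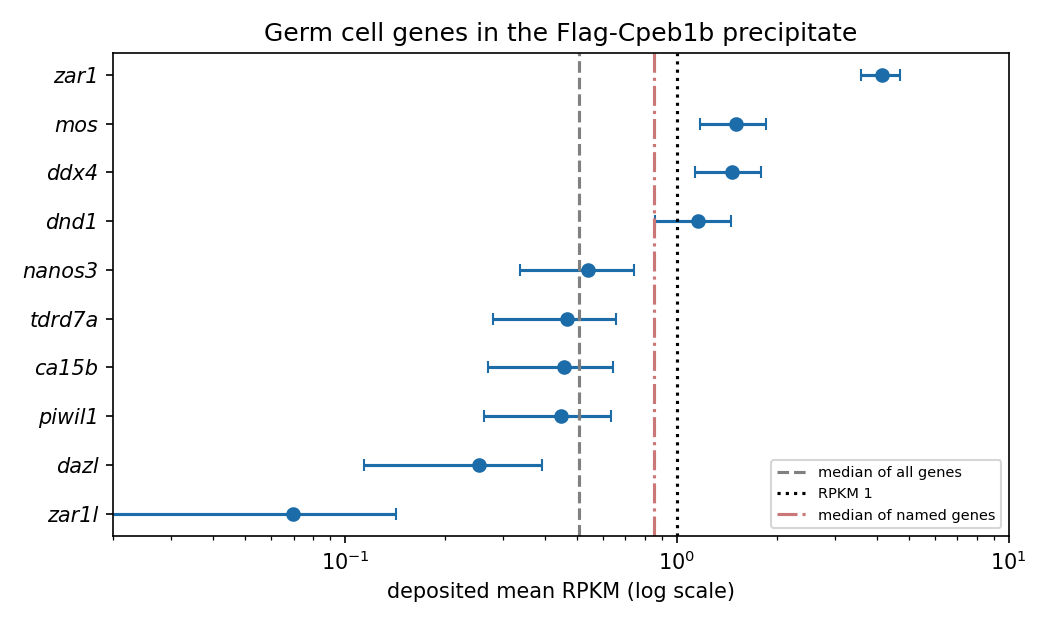
Deposited mean RPKM (log axis) of the 10 germ cell genes, 1 point per gene. Bars are the Poisson counting error for a gene model of 1 kb and not a spread between replicates, and the lower bar of zar1l is cut off at the axis. Only zar1, mos, ddx4 and dnd1 lie to the right of RPKM 1, and nanos3, tdrd7a, ca15b and piwil1 sit beside the median of all genes.

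The depth behind these values was read from the table. Its smallest steps fit libraries of 6576775 and 6551358 reads, provided that the authors averaged the replicates without weights. A gene at RPKM 1 would then have some 13.1 reads per kilobase, summed over the replicates, and a counting error of 27.6% if its model is 1 kb long. The libraries carried no molecular identifiers that the labels mention, so these errors cover counting only. Gene model lengths did not come with the table, and errors are stated for 1 kb.

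Among ddx4, tdrd7a and piwil1, ddx4 stood highest. It encodes Vasa, the DEAD-box RNA helicase that marks the germ line across animals, and had 1.46 RPKM, about 19.2 reads per kilobase with a counting error of 22.8%. That value lay above 68.2% of all genes and above 55.3% of named genes with a protein-coding RefSeq match. The gene tdrd7a, whose Tudor-domain protein shapes germ granules, had 0.467 RPKM, about 6.14 reads per kilobase. The row named TDRD7, whose paralogue letter the name table does not give, was lower at 0.188 RPKM and was not counted among the 10. The gene piwil1 encodes Ziwi, an Argonaute-family protein that carries piRNAs, the small RNAs that silence transposons in the germ line. It had 0.447 RPKM, about 5.87 reads per kilobase. At such counts tdrd7a and piwil1 differed by far less than their counting error of about 40.4% and 41.3%.

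Among the members dnd1, nanos3 and dazl, which encode RNA-binding regulators of germ cell mRNAs, dnd1 was highest and dazl lowest. The gene dnd1 encodes Dead end, which shields germ cell mRNAs from microRNAs, and had 1.16 RPKM with a counting error of 25.7%. The gene nanos3, whose zinc-finger protein is needed for survival of primordial germ cells, had 0.540 RPKM with an error of 37.6%. The difference between these neighbours, 2.14-fold, came to 1.72 times its counting error for gene models of 1 kb and 2.97 times for models of 3 kb. The gene dazl, which encodes an RNA-binding protein that promotes translation of germ cell mRNAs, had 0.253 RPKM, about 3.32 reads per kilobase with an error of 54.9%. Its value lay above 39.6% of all genes and was 5.80 times below that of ddx4.

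The oocyte genes held both ends of the range. Zar1 and Zar1l are related zinc-finger proteins that bind RNA in the oocyte. At 4.15 RPKM, about 54.5 reads per kilobase, zar1 ranked 5233 of 33737 and lay above 84.5% of all genes. It stood 2.75 times above mos, the next in order, a difference of 4.02 times its counting error for 1 kb models. The gene mos encodes the kinase that holds the egg in meiosis through the MAP kinase cascade, and its mRNA is a textbook target of CPEB in the frog oocyte. It had 1.51 RPKM with an error of 22.5%, rank 10556, close to ddx4 and above 68.7% of all genes. The carbonic anhydrase gene ca15b, whose mRNA is localized to germ plasm and primordial germ cells in zebrafish, had 0.457 RPKM and lay above 48.3% of all genes.

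The lowest value, 0.0696 RPKM for zar1l, can be traced to a handful of reads. It equals 1 read of the library with the 6551358 denominator over a gene model of 1096 nt, and by the same arithmetic 2 reads over 2192 nt or 3 over 3288 nt. Among the 1450 genes between RPKM 0.05 and 0.1, 67.3% fitted a single read in the same way. If zar1l rests on 1 read, its exact Poisson 95% interval is 0.00176 to 0.388 RPKM, which holds the value of dazl. The ratio of zar1 to zar1l, 59.6, would then range from 10.7 to 2356 from the counting error of zar1l alone. Of the other members only tdrd7a fitted 3 reads or fewer, as 2 reads over 326 nt, so a fit of this kind does not by itself fix the number of reads.

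In order of level the genes were zar1, mos, ddx4, dnd1, nanos3, tdrd7a, ca15b, piwil1, dazl and zar1l. Apart from zar1 over mos, no step between neighbours in that order exceeded 1.72 times its counting error for 1 kb models. The difference was 0.0974 times the error for mos and ddx4 and 0.690 times for ddx4 and dnd1. It was 0.262, 0.0393 and 0.0380 times the error along nanos3, tdrd7a, ca15b and piwil1, which spanned only 1.21-fold. For piwil1 over dazl it was 0.842 and for dazl over zar1l 1.17 times the error. With 1 mean value per gene, no pattern across samples existed by which other genes could be matched to these.

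**Figure D2:**
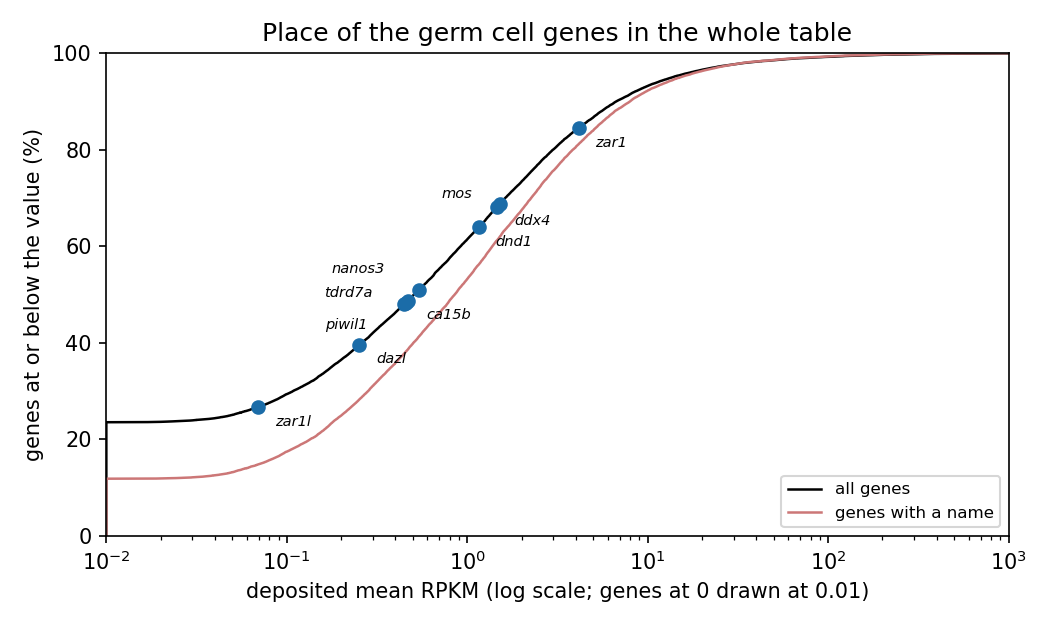
Cumulative share of genes (percent) against deposited mean RPKM (log axis, genes at 0 drawn at 0.01), for all 33737 genes and for the 21939 with a name. Blue points mark the germ cell genes on the curve of all genes, from zar1l at 26.7% to zar1 at 84.5%.

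Set beside related genes, ddx4 and piwil1 each took the lowest place. DDX4 was the lowest of 8 related helicase genes, all of which had RPKM 1 or more, as had 46.8% of named genes. Among the others, ddx43 had 110 RPKM, DDX5 32.3 RPKM and ddx3xb, a widely expressed helicase close to Vasa in sequence, 10.3 RPKM. The value of ddx3xb was 7.01 times that of ddx4. The lowest after DDX4 was DDX59 at 2.27 RPKM, 1.55 times ddx4 and 1.52 counting errors above it for 1 kb models.

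Both Piwi genes lay below every Argonaute gene measured. PIWIL2, the partner of piwil1 in the piRNA pathway, had 0.475 RPKM, 1.06 times piwil1 and within its counting error. Of the Argonaute genes, which serve microRNAs in all cells, AGO2 had 9.005 RPKM, AGO1 2.30 RPKM, AGO3 2.17 RPKM and ago3a 1.33 RPKM. The AGO2 value was 20.1 times that of piwil1.

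Of 16 Tudor family genes 5 reached RPKM 1, or 31.3% against 46.8% of named genes, and tdrd7a was among the 11 that did not. Of the latter, 10 are TDRD1, tdrd5, TDRD6, tdrd7a, TDRD7, TDRD9, tdrd12, tdrd15, tdrkh and stk31, known mainly from the germ line, and they spanned 0.188 to 0.616 RPKM with a median of 0.421 RPKM. The remaining gene under RPKM 1 was akap1a, which encodes a mitochondrial anchoring protein and is not a germline gene, at 0.332 RPKM. The 5 higher genes were SND1 at 16.3 RPKM, SMNDC1 at 13.8 RPKM, smn1 at 8.83 RPKM, AKAP1 at 8.04 RPKM and TDRD3 at 4.85 RPKM. SND1 acts in RNA metabolism of many cells and also stands in the piRNA list below. This grouping was made after the values were seen.

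Related RNA-binding genes were higher than dnd1, apart from RBM46. Of 7 genes related to dnd1, SYNCRIP had 72.9 RPKM, A1CF 11.4 RPKM and syncripl 8.49 RPKM, while RBM46, a germ cell gene in mammals, was lower than dnd1 at 0.147 RPKM. The dnd1 value was 7.88 times that of RBM46 and RBM47 was 2.55 times that of dnd1. For nanos3 and dazl no gene of the same family was measured here under the names searched, and only genes of the PUM and DAZAP names were compared. PUM3 had 24.2 RPKM and PUM2, a Pumilio protein of the kind that works with Nanos on mRNA, 4.21 RPKM, which was 7.81 times nanos3. DAZAP2 and DAZAP1, named as partners of DAZ, had 4.49 and 1.68 RPKM, 17.8 and 6.64 times dazl.

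The ca15b value lay near the middle of the carbonic anhydrase genes. Of 14 genes, 2 reached RPKM 1, against 46.8% of named genes. These were cahz, the blood form, at 2.46 RPKM and CA8 at 1.68 RPKM, and the third in order was ca2 at 0.890 RPKM. The paralogue ca15c had 0.410 RPKM, within counting error of ca15b, while ca15a and ca4b were listed at 0. The median of the family was 0.443 RPKM against 0.457 RPKM for ca15b.

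The kinases and cyclins around Mos also serve dividing somatic cells. All 12 genes analysed from that list had RPKM 1 or more, as had 46.8% of named genes. The gene fbxo5 had 31.6 RPKM, CDK1 12.1 RPKM and the cyclin gene CCNB1, another textbook CPEB target in the frog oocyte, 8.51 RPKM. CCNB1 was thus 5.63 times and CDK1 8.001 times mos. The kinase gene MAP2K1 was lower than mos, at 1.17 RPKM.

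**Figure D3:**
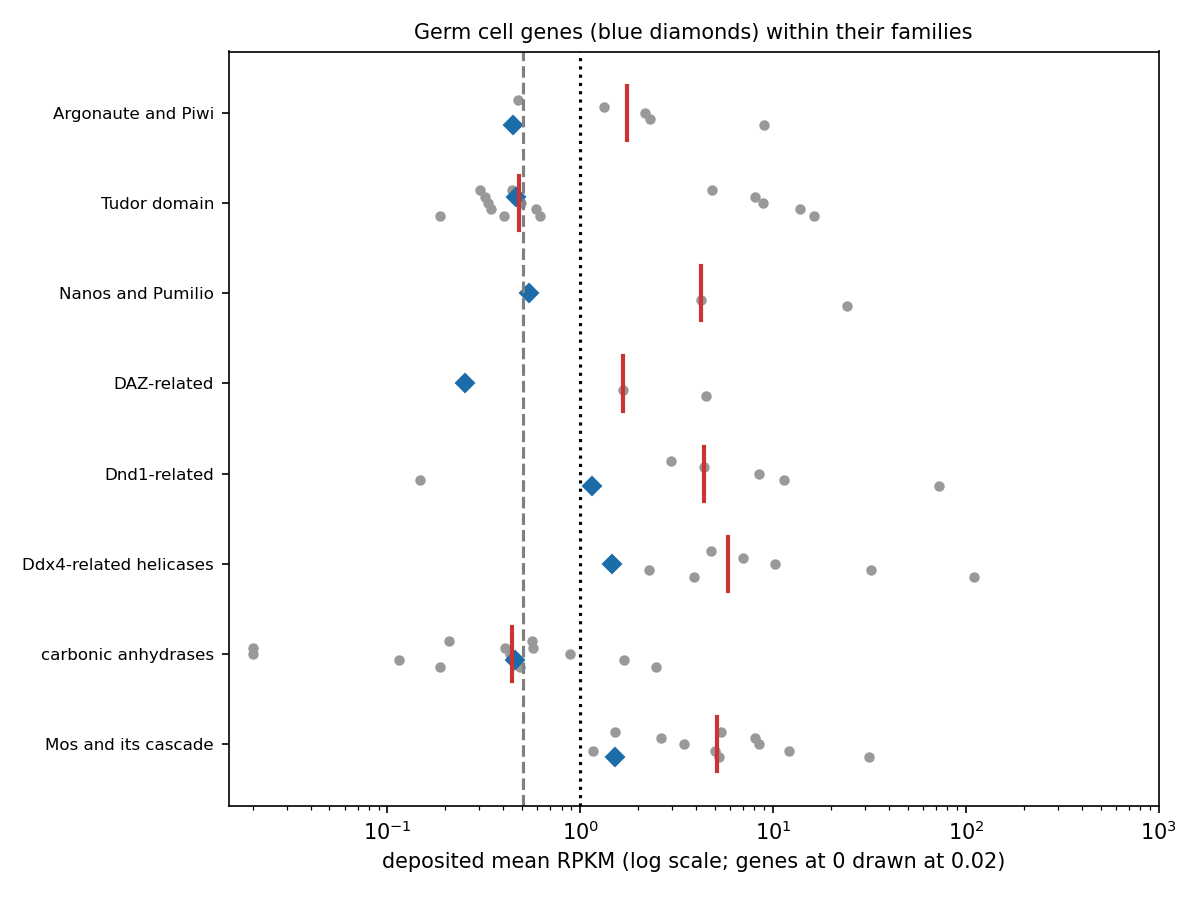
Deposited mean RPKM (log axis, genes at 0 drawn at 0.02) of the genes of 8 families or pathways, 1 point per gene. Blue diamonds are the germ cell genes, red bars the medians, the dashed line the median of all genes and the dotted line RPKM 1. DDX4, PIWIL1, NANOS3 and DAZL are the lowest of their rows, and the Tudor row has 11 genes under RPKM 1 and 5 above 4.

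Further germ plasm and primordial germ cell genes had a median close to that of the 10 but a wider range. Of 26 measured, 12 reached RPKM 1 (46.2%), against 38.6% of all genes and 46.8% of named genes. RPKM 5 was reached by 6 of them, against 13.3% of all genes, and their median was 0.554 RPKM. The highest, YBX1 at 329 RPKM, IGF2BP3 at 36.8 RPKM and CELF1 at 13.4 RPKM, encode RNA-binding proteins made in many cell types. Without these 3, hook2 and DAZAP2, a removal chosen after the values were seen, 7 of 21 genes (33.3%) reached RPKM 1. The median of the 21 was 0.442 RPKM, and ADAD1 and gtsf1 were the 2 at RPKM 5, against the same 13.3% of all genes. The germ plasm organizer gene buc had 1.41 RPKM, near ddx4 and mos, and the germ plasm gene gra had 2.83 RPKM. The chemokine receptor CXCR4, whose b form guides germ cells, had 3.87 RPKM in the higher of its rows.

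The piRNA pathway, which includes ddx4 and piwil1, had 4 of 15 genes at RPKM 1 (26.7%), against 46.8% of named genes. Its median was 0.447 RPKM, the piwil1 value itself. Its highest genes were SND1 at 16.3 RPKM, gtsf1 at 6.95 RPKM and DDX4. The other gene at RPKM 1 was henmt1, the methyltransferase of piRNA ends, at 1.08 RPKM. The 11 others lay between 0.133 RPKM for pld6 and 0.616 RPKM for TDRD6.

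Oocyte genes had a wider range than the 10. At RPKM 1 were 11 of 23 (47.8%), close to the 46.8% of named genes, and the median of the list was 0.835 RPKM. The highest were YBX1, CPEB1 at 30.5 RPKM and cth1 at 15.1 RPKM. The name CPEB1 carries no paralogue letter, and the table does not separate reads of the injected mRNA from those of the embryo's own gene. BTG4, an oocyte regulator of mRNA decay, had 4.00 RPKM, within counting error of zar1, and the maternal transcription factor gene nanog had 3.14 RPKM. The oocyte growth factor genes GDF9 and bmp15 had 0.835 and 0.714 RPKM, the egg coat gene zp3b 0.369 RPKM, and figla was listed at 0.

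Genes for the path of germ cells through the embryo were higher, with a median of 5.14 RPKM. RPKM 1 was reached by 46.8% of named genes and by 6 of these 7. These were rac1a at 14.5 RPKM, GNAI2 at 7.82 RPKM, cxcl12b at 6.94 RPKM, CXCL12 at 5.14 RPKM, CXCR4 and ACKR3 at 3.31 RPKM. They act in somatic cells as well. The seventh, rgs14a, a gene with maternal mRNA in germ plasm, had 0.341 RPKM.

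Markers of the embryo's somatic tissues were set beside the germ cell genes. Like the other lists, they were chosen with earlier results of these data known, so they are no independent check of the label. Of 22 names, 19 were matched, and shha, ctsl1b and sox17 were not. All 19 had RPKM 1 or more, as had 46.8% of named genes. Among these markers the epidermal keratin krt4 had 319 RPKM, the yolk layer apolipoprotein apoa1a 263 RPKM and krt5 198 RPKM. Their median was 6.96 RPKM. The lowest were TAL1 at 1.07 RPKM and gata1a at 1.12 RPKM, both of the blood lineage, levels between dnd1 and nanos3. At the other end stood the trace amine-associated receptors, most of them receptors of olfactory neurons, a family added after the data were seen. Of 45 such genes, 2 (4.44%) had RPKM 1 or more, against 46.8% of named genes. The value was 0 for 21 of the 45, while 76.5% of all genes were above 0. The median of the family was 0.0737 RPKM, close to zar1l. The highest were taar12c at 3.44 RPKM, taar14b at 1.90 RPKM and TAAR1 at 0.380 RPKM. Of the 10 germ cell genes, 9 were above the receptor median, as was every gene at RPKM 0.1 or more, 70.7% of all genes.

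**Figure D4:**
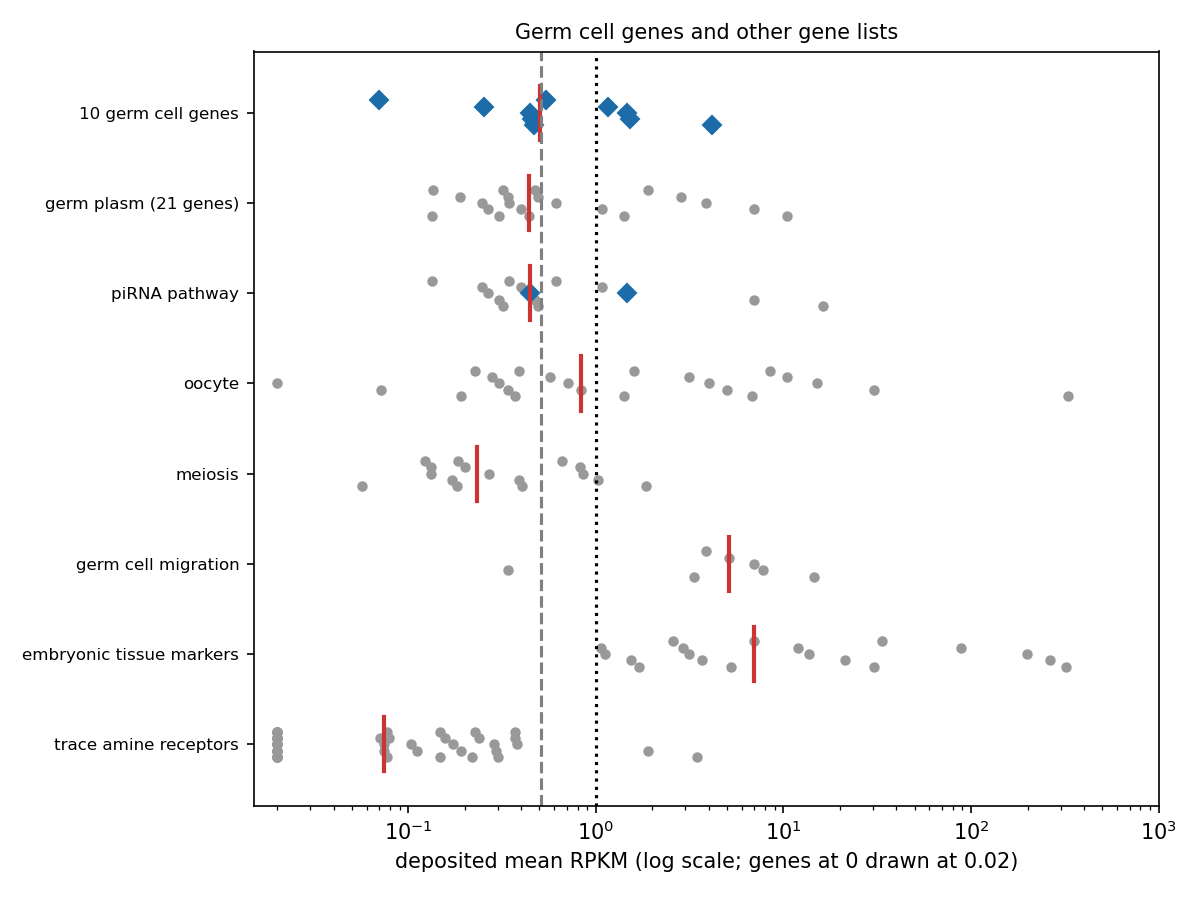
Deposited mean RPKM (log axis, genes at 0 drawn at 0.02) of the 10 germ cell genes and 7 other gene lists, 1 point per gene. Blue diamonds are the 10 genes, red bars the medians, the dashed line the median of all genes and the dotted line RPKM 1. The germ plasm row leaves out 5 genes made in many cell types. The median of the 10 lies between those of the tissue markers and of the trace amine receptors, as does the median of all genes.

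No source used here says whether counting used strand, so reads of a member cannot be separated from those of a gene that overlaps it. In the RefSeq annotation (assembly GRCz12tu, not the Zv9 build of the table), 6 of the 10 genes overlapped no other gene. Those of ddx4, dnd1 and zar1l overlapped long non-coding RNA genes that have no row of that name here. The dazl gene overlapped pals2b, and zar1l overlapped kl, which had 0.169 RPKM. The 2 rows of the stem PALS2 had 3.75 and 2.94 RPKM, both higher than dazl.

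Genes next to the members had a median close to that of named protein-coding genes. Of 18 flanking protein-coding genes with 1 row, 10 reached RPKM 1, against 46.8% of named genes, which include names without a protein-coding match. The flanking genes had a median of 1.19 RPKM against 1.16 RPKM for names with a protein-coding RefSeq match. Most of those names thus also reached RPKM 1. Of the 18, 9 were higher than the member they flank. The top member, zar1, exceeded both of its neighbours, fryl at 2.55 RPKM and slc10a4 at 0.942 RPKM. So did ca15b, with mmp25b at 0.221 RPKM and zgc:153760 at 0.197 RPKM. In contrast, piwil1 lay below both stx2b at 1.80 RPKM and fzd10 at 5.67 RPKM, and zar1l below both fryb at 23.6 RPKM and rfc3 at 2.86 RPKM. The neighbours of ddx4, ppip5k2 at 1.73 RPKM and slc38a9 at 1.15 RPKM, lay on either side of it. The part of neighbouring transcription in the members' values was not tested.

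**Figure D5:**
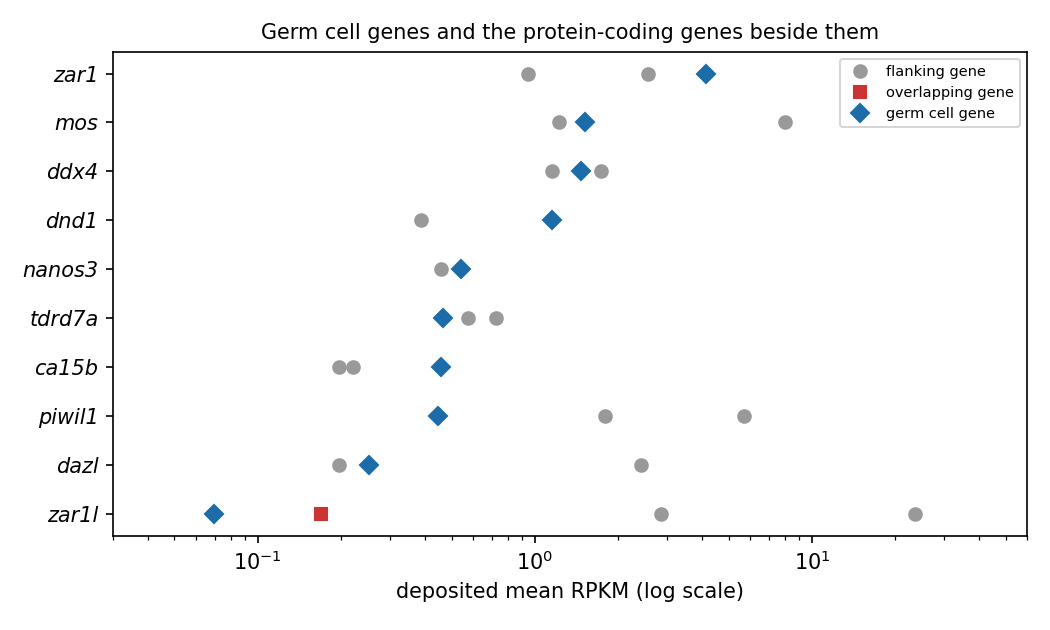
Deposited mean RPKM (log axis) of each germ cell gene (blue diamond), of the nearest protein-coding gene on each side in the RefSeq order (grey) and of an overlapping protein-coding gene (red), where these have 1 row in the table. The genes zar1, dnd1, nanos3 and ca15b lie above every neighbour shown, and tdrd7a, piwil1 and zar1l below theirs. For dnd1 and nanos3 only 1 neighbour is shown. The nanos3 value exceeds its neighbour by less than its 1 kb counting error of 0.203 RPKM. Likewise tdrd7a lies below its nearer neighbour in level, stra6l, by less than its error of 0.189 RPKM.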

How the data were processed

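The authors deposited 1 table without a header, with 1 RPKM value per Ensembl gene averaged over 2 replicates, as its name says. Per the submitters' processing notes, the build was Zv9 and the tools were TopHat2 2.1.1, Bowtie, cutadapt 1.13, Trimmomatic 0.36, bedtools 2.16.2, MACS2 2.0.10 and FastQC. No source used here gives their roles, the gene lengths or the treatment of multiply aligned reads. Gene names, paired with 21939 of 33737 identifiers (65.0%), were matched regardless of case, keeping the highest row. Where a listed name had several rows, this can raise a list's count against the share of named genes, which counts every row. Names not found were tried without a final paralogue letter, but only where it followed a digit or x, k, g or l. The members and lists were chosen with earlier results of these data known. Every member was named, and the 3 highest genes of each list. Depth was read from values of RPKM 0.4 to 2 shared by at least 3 rows, of which the 2 steps explained 135 of 171 (tolerance 0.002 nt). The search was tested on simulated libraries further apart in depth than these, whose denominators differ by 0.387%. That test therefore cannot show that steps this close can be separated. Without groups or replicate values there was no test. Alternatives changed the threshold, the rows kept, the log scale and the reference set. Python 3.11.15, NumPy 2.4.6 and pandas 2.3.3 were used. A gene of the Mos cascade list is not reported here.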

Additional observations from a re-analysis of the deposited data

How the results depend on the processing

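The count of germ cell genes at or above a threshold followed the threshold, as did the share of all genes. The count was 4 at RPKM 1 (38.6% of all genes), 9 at RPKM 0.1 (70.7%), 10 above 0 (76.5%) and 0 at RPKM 5 (13.3%). The median of the 10 genes, 0.504 RPKM, became 1.49 RPKM over those at RPKM 1 or more and 0.838 RPKM as a mean on the log2(RPKM + 1) scale. A mean on the log2(RPKM + 0.1) scale gave 0.685 RPKM. That shift was smaller than the counting error of a single 1 kb gene at 0.504 RPKM, which is not the error of a median. The other alternatives gave 0.467 to 0.504 RPKM, including the TDRD7 row, added after seeing the data. The members' median percentile was 49.8 among all genes, 39.9 among named genes, 34.3 among genes above 0 and 32.7 among protein-coding names, and each of the 10 genes was placed lower in these 3 sets. No paired analysis was possible because there is 1 group, and no replicate could be left out because the table holds the mean. Matching members by Ensembl identifier through RefSeq was not run, as the identifier column was empty. Depth limits the 6 genes under RPKM 1, which have about 7.09 reads per kilobase or fewer.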

Other observations

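Meiotic genes, which act mainly in the germ line after the embryonic stages, had a lower median than the 10 germ cell genes described above. The 2 sets overlapped, as the highest meiotic gene exceeded each of the 10 except zar1. Of 16 measured, 2 (12.5%) reached RPKM 1, against 38.6% of all genes and 46.8% of named genes. These were the synaptonemal complex gene SYCP3 at 1.84 RPKM and the mismatch repair gene mlh3 at 1.02 RPKM. MSH5, which acts in meiotic crossing over, followed at 0.851 RPKM, and the recombinase gene DMC1 was lowest at 0.0563 RPKM. The median of the list was 0.234 RPKM, near the value of dazl. None of its genes was listed at 0, and 76.5% of all genes were above 0.

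Some genes of the lists above, picked for their high values, exceeded each of the 10. The helicase gene ddx43 had 110 RPKM, ADAD1, a testis gene in mammals, 10.5 RPKM, the piRNA factor gene gtsf1 6.95 RPKM and the nucleoplasmin gene npm2b 10.5 RPKM. RPKM 1 was reached by 33.3% of the reduced germ plasm list and 26.7% of the piRNA list, against 38.6% of all genes and 46.8% of named genes. The paralogue npm2a had 0.305 RPKM. The gene bbs12, which overlaps adad1 in the RefSeq annotation, had 0.0655 RPKM, and srp72, which flanks it, 19.8 RPKM. The genes il2, overlapping adad1, and myo18b, overlapping npm2b, had no row of that name here, and no RefSeq gene overlapped ddx43 or gtsf1. The part of these neighbours in the values was not tested.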
